A study of Mus musculus with 30 samples.

Results

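The genes described here are 9 complement components and complement receptors of mouse microglia, namely *C1qa*, *C1qb* and *C1qc*, *C3* and *C4b*, the receptor genes *C3ar1* and *C5ar1*, and *Itgam* and *Itgb2*. They were chosen by name, with earlier results of these data known, and they are 9 of the 47643 genes listed in the deposited table. All 9 were among the 16897 genes tested, which had a mean FPKM (fragments scaled to transcript length and to the mapped fragments of each library) of at least 0.1 over the 30 libraries.

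Complement is a cascade of plasma proteins that tags material for uptake. C1q, assembled from A, B and C chains, starts the classical pathway by binding its target, C4 and C3 are then cleaved and become attached to it, and the released fragments C3a and C5a signal through the G protein-coupled receptors encoded by *C3ar1* and *C5ar1*. *Itgam* encodes CD11b, the alpha chain of complement receptor 3 (CR3), and *Itgb2* encodes CD18, its beta chain, and CR3 binds the iC3b fragment of C3. In the brain, microglia are the main source of C1q, and C1q, C3 and CR3 are known for their part in the removal of synapses.

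Microglia of 3 month-old mice were sorted by the authors as CD11b+ cells with intermediate CD45, so the product of *Itgam* was part of the gate. Homo denotes animals with both *Bin1* copies floxed and Cx3Cr1-Cre (Bin1 flox/flox::Cx3Cr1-Cre+), with 5 males and 5 females. Het denotes animals with a single floxed copy and the same Cre (Bin1 wt/flox::Cx3Cr1-Cre+), with 6 males and 5 females. The WT label covers 5 males and 4 females. The study gives their genotype as wt/flox without Cre. The Cre is inserted at *Cx3cr1*, a gene of microglia and other myeloid cells, so that each Het or Homo library carries both this insertion and the loss of at least 1 *Bin1* copy, and these cannot be told apart. The protocol text attached to the samples speaks of cells grown from newborn pups and given Tau, LPS and ATP. It differs from the methods of the study, which were followed here, and neither was tested.

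Depth, estimated from the FPKM step that 1 fragment gives, was about 6640000 to 14000000 fragments per library, with medians of 11700000 in male WT, 9080000 in male Het and 9130000 in male Homo mice. All 10 microglial markers were detected, and their summed FPKM was between 19746 and 28417. *Bin1* was 230.3 to 290 FPKM in male WT and 39.9 to 55.6 in male Homo libraries, and 244 to 271 in female WT and 39.5 to 43.3 in female Homo libraries. Of the Het libraries, those labelled Het-F-0206 (42.7 FPKM) and Het-M-0199 (51.8 FPKM) lay at Homo levels of *Bin1*, so the Het results are also given without both of them. Het-F-0206 also had 13.9 FPKM of *Cx3cr1*, below every other group. *Cx3cr1* was 1829 to 2344 in WT, 1094 to 1242 in female Homo and 726 to 1112 in male Homo libraries. Mouse numbers in the labels fall into an early range, which holds 3 of 5 male Homo, 2 of 6 male Het and 1 of 4 female WT libraries, and a late range, beginning at WT-M-0176, which holds the others. Homo-M-0093 has the lowest number and WT-F-0122 the highest of the early range. What the ranges stand for is not given in the labels.

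The order of the 9 genes by FPKM, a scale per transcript length, was the same in all 30 libraries. *C1qb* was highest with a mean of 5305 ± 743 FPKM (SD, n = 30), followed by *C1qc* with 4364 ± 562 and *C1qa* with 2799 ± 519. They ranked 5, 9 and 14 among all genes listed, and together made up 1.67% to 3.16% of the summed FPKM of a library (median 2.68%). The integrin chains came next, *Itgam* with 354 ± 59.1 and *Itgb2* with 228.5 ± 34.4 FPKM. The receptors for C3a and C5a followed, *C3ar1* with 104 ± 15.0 and *C5ar1* with 72.7 ± 15.8 FPKM. The substrates of the cascade were the lowest, *C4b* with 2.26 ± 0.965 and *C3* with 0.646 ± 0.338 FPKM, so these microglia held abundant transcripts for the recognition molecule and for the receptors and few for the substrates between them.

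The estimated fragments behind each value followed this order. An estimated 59546 fragments (median over libraries) lay behind a value of *C1qb*, 1887 behind *C5ar1*, 113 behind *C4b* (43.5 to 329) and 28.9 behind *C3* (9.26 to 92.98). Over all libraries the highest value was 1.74 to 2.75 times the lowest for the 7 abundant genes, 4.93 times for *C4b* and 12.6 times for *C3*.

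**Figure D1:**
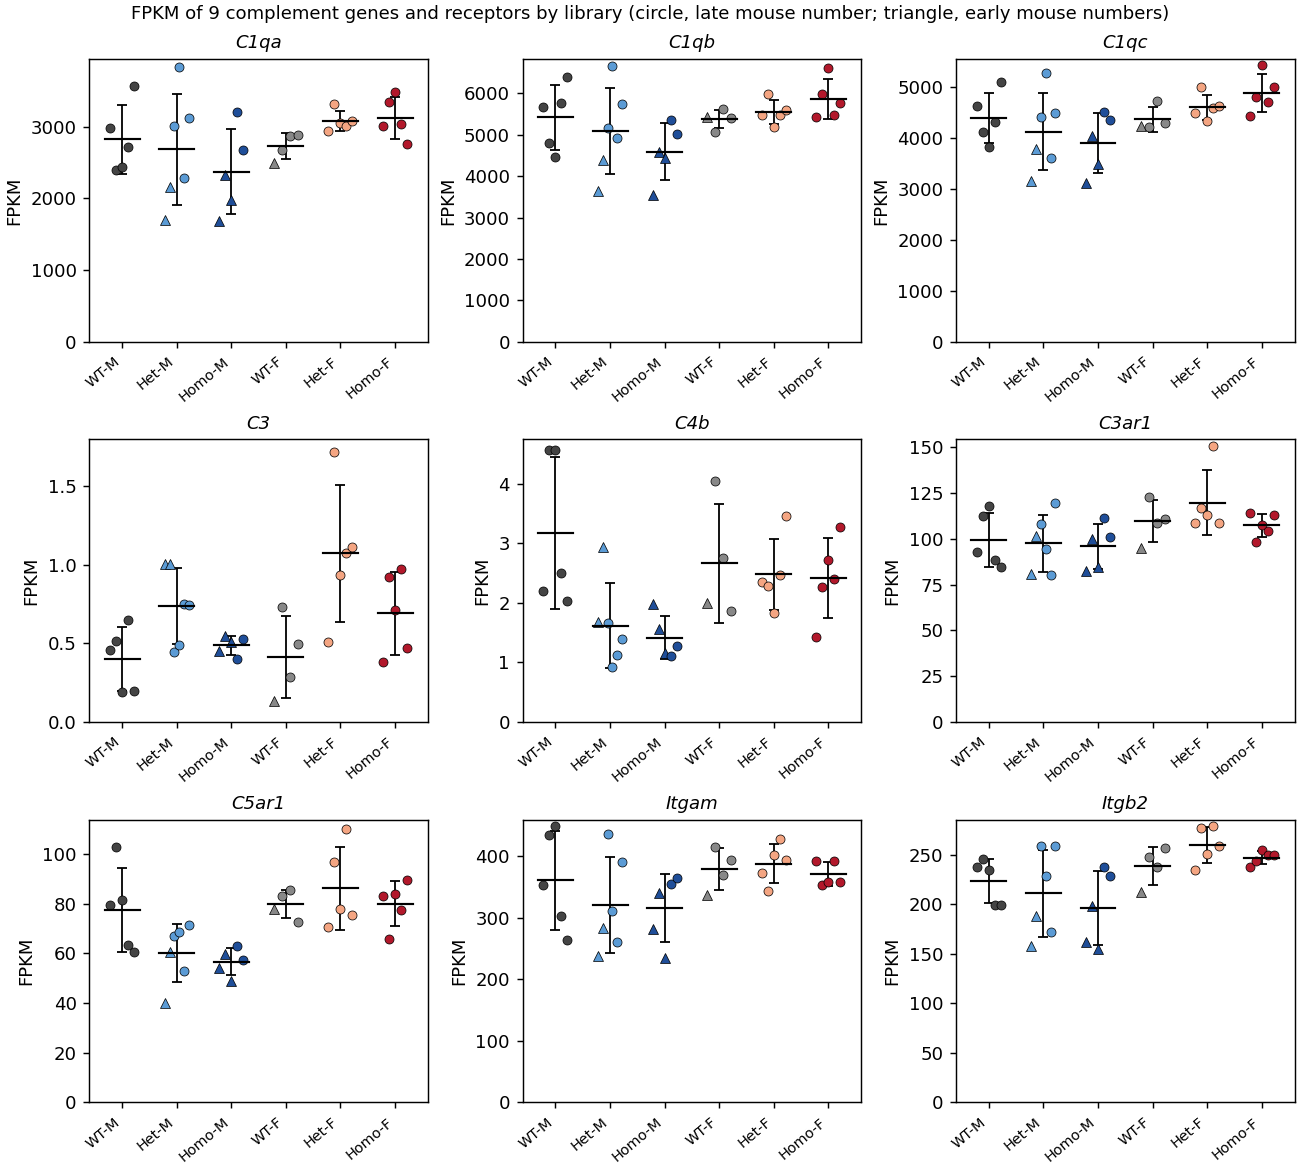
FPKM of each of the 9 genes (vertical axis, from 0) in every library of the 6 groups (horizontal axis); the line is the group mean, the bar its SD, triangles are early and circles late mouse numbers. *C4b* was 2.03 to 4.56 FPKM in male WT and 1.11 to 1.99 in male Homo mice, and the triangles in the male Het and Homo groups lie low for *C1qa* and *Itgb2*.

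The C1q genes lie side by side on the minus strand of chromosome 4 (GRCm38), *C1qb* at chr4:136880129-136886187, *C1qc* at chr4:136889804-136893065 and *C1qa* at chr4:136895917-136898803, within 18675 bases. The 300 bases around the start of *C1qb* (250 before and 50 after the RefSeq start, GRCm38.p6, chr4:136886151-136886450, minus strand) and of *C1qc* (chr4:136892865-136893164, minus strand) are shown because these neighbours moved together over the libraries. Capitals mark the purine-rich core GAGGAA of PU.1 and other ETS factors or, on the other strand, TTCCTC. The other motifs searched, on both strands, were TTGCNNAA, a C/EBP motif, and TATAAA, which marks the start of some genes, and neither is in these windows.
C1qb: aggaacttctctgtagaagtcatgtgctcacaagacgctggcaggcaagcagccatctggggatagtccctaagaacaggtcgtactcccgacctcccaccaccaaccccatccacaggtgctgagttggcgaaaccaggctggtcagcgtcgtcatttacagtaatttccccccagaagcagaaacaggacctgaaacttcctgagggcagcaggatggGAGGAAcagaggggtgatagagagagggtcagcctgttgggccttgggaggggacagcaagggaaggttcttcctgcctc
C1qc: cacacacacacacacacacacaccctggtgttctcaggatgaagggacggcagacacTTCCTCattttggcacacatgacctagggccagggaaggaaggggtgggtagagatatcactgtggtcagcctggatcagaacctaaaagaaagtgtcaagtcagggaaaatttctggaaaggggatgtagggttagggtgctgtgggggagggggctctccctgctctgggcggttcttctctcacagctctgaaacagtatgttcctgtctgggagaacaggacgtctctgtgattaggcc
GAGGAA occurs in 28.3% of the 32851 RefSeq promoter windows of the same length, TTGCNNAA in 10.8% and TATAAA in 13.6%. A window was found for 6 of the 9 genes, not for *C1qa*, *C4b* and *Itgb2*. No match overlapped another.

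The C1q genes did not pass the test in any comparison with WT. In male WT mice *C1qa* was 2975, 2393, 2442, 2721 and 3570 FPKM. In male Homo mice it was 1685, 2317, 1974, 3199 and 2675 FPKM, and in male Het mice 1703 to 3833 with a median of 2643. The Homo libraries lay lower on average and overlapped WT, with 3 of 5 below the lowest WT library. The log2 fold change of *C1qa* in male Homo mice was -0.35 (SE 0.21, 95% interval -0.78 to 0.07, limma adjusted p = 0.315), that of *C1qb* -0.32 (SE 0.19, adjusted p = 0.300) and that of *C1qc* -0.26 (SE 0.17, adjusted p = 0.377). In females the direction was the other, with *C1qa* at 2493 to 2885 FPKM in WT, 2935 to 3319 in Het and 2752 to 3481 in Homo mice. The log2 fold change of *C1qa* was 0.17 (SE 0.22) in female Het and 0.19 (SE 0.22) in female Homo mice, and the adjusted p by limma was 1 for each C1q gene in both.

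The chains kept a nearly fixed proportion to each other. The FPKM of *C1qa* was 0.525 ± 0.0413 times that of *C1qb* (SD, n = 30), and that of *C1qc* was 0.825 ± 0.0374 times that of *C1qb*. By group, the mean ratio of *C1qa* to *C1qb* was between 0.508 in female WT and 0.555 in female Het mice, and that of *C1qc* to *C1qb* between 0.810 in female WT and 0.850 in male Homo mice. Within a group the SD of the first ratio was 0.0188 to 0.0582 and that of the second 0.00736 to 0.0535, and no test was run on the group means.

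Of the 2 substrates, *C4b* carried the one change that passed the test. *C4b* (ENSMUSG00000073418), which encodes complement C4, the component cleaved by C1s, lies on the minus strand at chr17:34728380-34743882. In male WT mice it was 2.20, 4.56, 4.56, 2.51 and 2.03 FPKM. The male Homo libraries had 1.99, 1.56, 1.16, 1.11 and 1.28 FPKM. All 5 Homo libraries lay below all 5 WT libraries, with 1.99 in Homo-M-0093 next to 2.03 in WT-M-0258 at the boundary. In male Het mice *C4b* was 0.925 to 2.93 FPKM with a median of 1.53, and 5 of 6 libraries lay below the lowest WT library.

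The log2 fold change of *C4b*, on the log2(FPKM + 0.1) scale, was -1.13 in male Homo mice (SE 0.28, 95% interval -1.71 to -0.55, limma adjusted p = 0.0309), which is 0.457 times the WT level. For male Het mice it was -1.001 (SE 0.27, interval -1.56 to -0.45) and did not pass (adjusted p = 0.123). Homo and Het males differed by -0.13 (SE 0.27, interval -0.68 to 0.43). In females *C4b* was 1.87 to 4.04 FPKM in WT, 1.83 to 3.46 in Het and 1.43 to 3.27 in Homo mice, and the groups lay over each other. The log2 fold changes were -0.07 (SE 0.30) and -0.12 (SE 0.30), with an adjusted p of 1 in limma. The male change less the female change was -1.01 on the log2 scale (SE 0.41) and did not pass (limma adjusted p = 0.525).

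The call for *C4b* in male Homo mice was lost when any of 5 of the 10 libraries was left out, although the size of the change stayed between -1.27 and -0.97. By limma the adjusted p was 0.0548 without Homo-M-0093, 0.0537 without Homo-M-0097, 0.0926 without Homo-M-0109, 0.0933 without WT-M-0177 and 0.0875 without WT-M-0178. Among late mouse numbers alone, where 2 Homo and 5 WT males remain, the log2 fold change was -1.26 (SE 0.36, adjusted p = 0.284).

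*C4b* shares sequence with its neighbour *C4a* (ENSMUSG00000015451), 65209 bases away on the same strand. The longest transcripts of both genes are 96.1% identical over 5367 aligned bases, and 35.2% of the 50-base stretches of *C4b* also occur in *C4a*, so fragments could be divided between them. The 90 coding bases in which they differ most are shown, at chr17:34735430-34735519 (GRCm38, minus strand, exon 21 of 41 of *C4b*), with the 14 bases that differ in capitals.
C4b: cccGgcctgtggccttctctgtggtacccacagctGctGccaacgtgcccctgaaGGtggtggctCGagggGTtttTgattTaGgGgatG
C4a: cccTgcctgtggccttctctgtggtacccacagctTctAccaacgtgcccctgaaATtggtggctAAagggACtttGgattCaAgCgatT
*C4a* averaged 0.617 ± 0.447 FPKM (SD) over the 5 male WT libraries and 0.237 ± 0.185 FPKM (SD) over the 6 male Het libraries, and it was at 0 in 3 of 5 male Homo libraries and at most 0.263 in the others. With both genes summed, male Homo mice were lower than male WT by a log2 difference of -1.32 with no overlap between the libraries, and male Het mice by -1.07 with overlap. This sum was added after the data were seen and carries no test.

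In the same male comparisons, markers of border-associated macrophages, of neutrophils and of choroid plexus and ependyma were mostly or all lower. This did not hold for every cell type. Of the astrocyte markers 0 of 7 were lower (median log2 fold change 0.52 in Homo and 0.75 in Het mice). In the oligodendrocyte lineage 1 of 6 tested was lower in each (medians 0.54 and 0.87), and of neuronal markers 1 of 7 (0.23 and 0.36). Monocyte markers were lower for 2 of 4 in each, and neutrophil markers for 7 of 7 in Homo and 6 of 7 in Het mice. The neutrophil medians were -4.73 in Homo and -2.77 in Het mice. In male Homo mice 1 oligodendrocyte lineage, 1 monocyte and 4 neutrophil markers passed as lower. In these lists 0 passed as higher, and 0 passed in male Het mice. Border-associated macrophages, which lie around brain vessels and in the meninges, carry CD11b, and a gate on intermediate CD45 leaves out those with high CD45. The summed FPKM of 8 such markers, *Mrc1*, *Pf4* and *Cd163* among them, was 18.1 to 51.5 in male WT, 14.1 to 24.0 in male Het and 12.9 to 31.3 in male Homo mice. In both male comparisons 8 of 8 were lower and 0 passed the test (median log2 fold change -0.87 in Homo and -1.10 in Het mice), and no marker was at 0 in every library. In females, where the *C4b* estimates were -0.12 and -0.07, 7 of 8 were lower in Homo (median -0.45) and 8 of 8 in Het mice (median -0.60), and again 0 passed. The 5 tested markers of choroid plexus and ependyma, *Ttr* among them, were also lower in each of the 4 comparisons with WT and 0 passed. Their summed FPKM was 0.264 to 275 in male WT and 0.436 to 23.9 in male Homo mice, with a median log2 fold change of -2.06 in male Homo and -1.66 in female Homo mice. Over the 30 libraries the deviations of *C4b* from its group means had a Pearson's r of 0.61 with those of the summed border macrophage markers. It was 0.29 with those of the neutrophil markers, 0.26 with monocyte and 0.25 with choroid plexus and ependyma markers. With the other lists it was between -0.12 (microglia) and 0.18 (oligodendrocyte lineage), and all of these share libraries and depth. The part of such cells in the *C4b* difference was not tested, and in sorted bulk RNA fewer cells of a type and less RNA per cell cannot be told apart.

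*C3* (ENSMUSG00000024164, chr17:57203970-57228136, minus strand), the component on which all pathways converge, was higher in each Cre-positive group on average and passed in none. In female WT mice it was 0.136, 0.730, 0.287 and 0.499 FPKM. In female Het mice it was 0.512, 1.72, 0.938, 1.08 and 1.12 FPKM. The female groups overlapped, with 4 of 5 Het libraries above the highest WT library, and the highest of all was Het-F-0206. The log2 fold change of 1.26 in female Het mice (SE 0.36, interval 0.51 to 2.00, unadjusted p = 0.0017) did not pass (limma adjusted p = 0.317), and leaving out any 1 library moved it between 0.92 and 1.55. It was 0.71 (SE 0.36) in female Homo, 0.73 (SE 0.33, adjusted p = 0.327) in male Het and 0.26 (SE 0.34) in male Homo mice. These sizes rested on single libraries and on the pseudocount. Without WT-F-0122 the change in female Homo mice was 0.37, and that in male Homo mice was 0.09 without WT-M-0178 or WT-M-0258 and 0.42 without WT-M-0202. With a pseudocount of 1 the changes in female Het, female Homo, male Het and male Homo mice were 0.55, 0.26, 0.28 and 0.07. The female Het change was 1.08 (SE 0.38) without Het-F-0206 and Het-M-0199.

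The male values of *C3* were 0.461, 0.515, 0.188, 0.652 and 0.197 FPKM in WT, and 0.455, 0.549, 0.512, 0.401 and 0.529 FPKM in Homo mice. The male Het values ran from 0.443 to 1.01 with a median of 0.747, and 4 of 6 lay above the highest WT library. All Homo males lay within the range of WT males, with a group SD of 0.0607 against 0.204 in WT.

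The window around the start of *C3* (chr17:57228087-57228386, GRCm38.p6, minus strand) is shown because *C3* moved with none of the other genes. Capitals mark a C/EBP match, TTGCNNAA, that begins 45 bases before the start, and a TATAAA that begins at base 15 after it.
C3: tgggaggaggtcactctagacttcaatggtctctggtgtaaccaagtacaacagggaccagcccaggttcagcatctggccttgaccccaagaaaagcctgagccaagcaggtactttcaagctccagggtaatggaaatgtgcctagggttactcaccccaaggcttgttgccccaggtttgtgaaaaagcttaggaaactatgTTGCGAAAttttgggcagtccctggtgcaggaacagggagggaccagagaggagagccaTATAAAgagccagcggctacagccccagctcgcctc

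The receptors for the released fragments differed in size of change. *C5ar1* (chr7:16246743-16259540, minus strand), the C5a receptor, was 79.4, 102.6, 81.3, 63.3 and 60.6 FPKM in male WT mice. The male Homo libraries had 54.1, 59.7, 49.0, 63.0 and 57.5 FPKM, and those of male Het mice 40.1 to 71.5 with a median of 63.9. All 5 Homo and all 6 Het libraries lay below the WT mean of 77.4 ± 16.8 FPKM (SD, n = 5), but the ranges overlapped. The log2 fold change was -0.51 in male Homo mice (SE 0.18, interval -0.87 to -0.15, limma adjusted p = 0.0909) and -0.44 in male Het mice (SE 0.17, adjusted p = 0.280), and neither passed. In females it was 72.5 to 85.6 FPKM in WT, 70.7 to 110.2 in Het and 65.6 to 89.6 in Homo mice, with log2 fold changes of 0.09 and -0.0067 (SE 0.19 each).

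*C3ar1* (chr6:122847138-122856161, minus strand), the C3a receptor, was 84.8 to 118 FPKM in male WT, 80.2 to 119 in male Het and 82.1 to 111 in male Homo mice. Its log2 fold change was -0.13 (interval -0.43 to 0.17) in male Homo and -0.10 (interval -0.39 to 0.19) in male Het mice, and 0.12 and -0.03 in female Het and Homo mice, none past the threshold. The ratio of *C5ar1* to *C3ar1* averaged 0.778 ± 0.0999 over the 5 male WT, 0.616 ± 0.0760 over the 6 male Het and 0.595 ± 0.0380 over the 5 male Homo libraries (SD). The Homo libraries, with ratios of 0.566 to 0.658, lay below all WT males at 0.689 to 0.913. In females the ratio was 0.735 ± 0.0819 (SD, n = 4), 0.719 ± 0.0678 (SD, n = 5) and 0.744 ± 0.0503 (SD, n = 5) in WT, Het and Homo mice. No test was run on these ratios, and how often other gene pairs separate male Homo from male WT mice was not examined. Of single genes tested, 4.01% had no overlap between these groups.

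Neither chain of CR3 passed in a comparison with WT. *Itgam* (chr7:128062640-128118491, plus strand) was 353, 434, 448, 303 and 264 FPKM in male WT mice. The male Homo libraries had 282, 341, 235, 354 and 364 FPKM, within or just below the WT range. The log2 fold change was -0.27 (SE 0.18, interval -0.64 to 0.11) in male Homo, -0.25 (SE 0.18) in male Het, 0.03 (SE 0.19) in female Het and -0.03 (SE 0.19) in female Homo mice. *Itgb2* (chr10:77530252-77565708, plus strand) was 198.9 to 245.6 FPKM in male WT, 158.2 to 259.0 in male Het and 154.7 to 237.4 in male Homo mice, and 238.1 to 255.1 in female Homo against 212.3 to 256.5 in female WT mice. Its log2 fold changes were -0.28 (SE 0.16, limma adjusted p = 0.293), -0.18, 0.12 and 0.05 in male Homo, male Het, female Het and female Homo mice. The ratio of *Itgam* to *Itgb2* was 1.55 ± 0.136 (SD, n = 30), with group means of 1.496 to 1.61.

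*Itgam* shares 72.4% of its 50-base stretches with *Gm49368*, a gene model that overlaps it on the same strand. *Gm49368* took 0.138% to 1.76% of the summed FPKM of both, and the sum differed from male WT by a log2 value of -0.27 in male Homo and -0.25 in male Het mice. The window around the start of *Itgam* (chr7:128062390-128062689, GRCm38.p6, plus strand) holds GAGGAA, or TTCCTC on the other strand, 3 times, more often than the other 5 windows, and is shown for that reason.
Itgam: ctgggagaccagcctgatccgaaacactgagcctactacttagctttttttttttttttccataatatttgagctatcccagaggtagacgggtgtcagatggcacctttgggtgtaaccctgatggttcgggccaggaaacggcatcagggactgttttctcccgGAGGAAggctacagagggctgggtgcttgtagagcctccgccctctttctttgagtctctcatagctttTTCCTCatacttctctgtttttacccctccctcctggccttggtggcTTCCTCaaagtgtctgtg

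**Figure D2:**
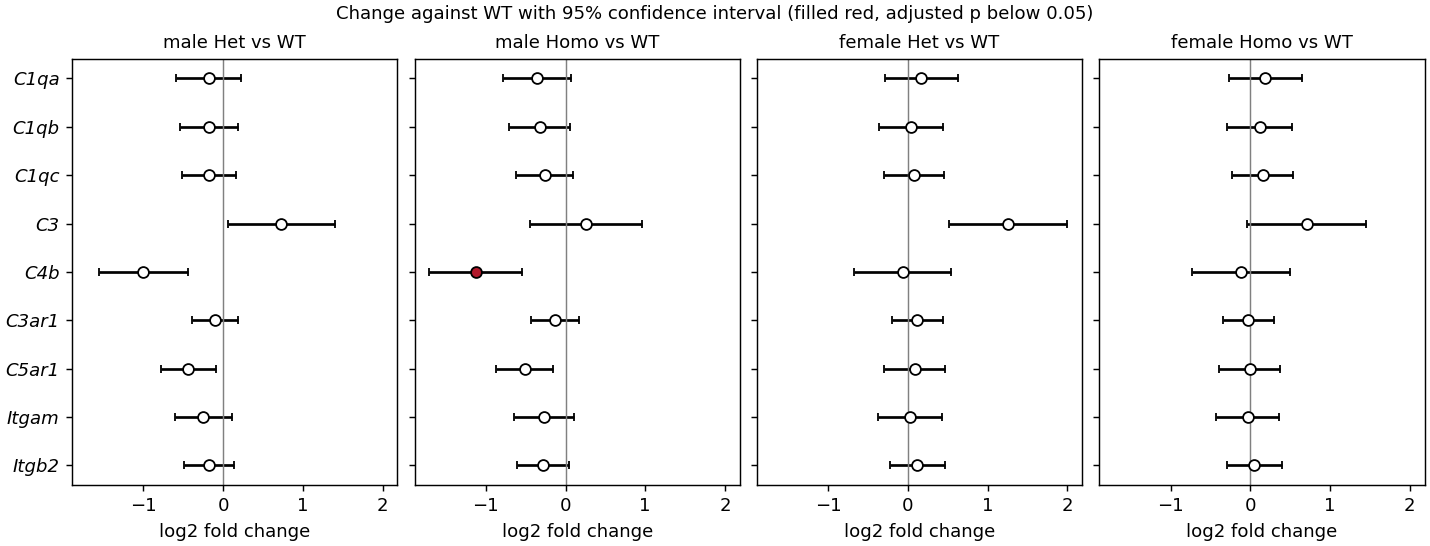
Log2 fold change against WT of the same sex (horizontal axis) with its 95% interval for each gene (vertical axis) in the 4 comparisons; filled points passed an adjusted p of 0.05 in limma. *C4b* in male Homo mice (-1.13) is the only filled point, and *C3* lies to the right of 0 in all 4 panels.

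Against all genes, the counts were small. In male Homo mice 1 of the 9 genes passed and fell, *C4b*, where 2.82% of the genes tested passed, and it was also the 1 gene without overlap between the groups, where 4.01% of the genes tested had none. There 2 of 9 had an unadjusted p below 0.05, against 22.5% of all genes. In male Het mice 0 passed in limma (background 0.172%), 3 of 9 had an unadjusted p below 0.05 (background 14.2%), and 0 were without overlap (background 0.811%). In female Homo mice 0 passed in limma (background 0.071%), 0 had an unadjusted p below 0.05 (background 3.49%) and 0 were without overlap (background 2.32%). In female Het mice 0 passed in limma (background 0.136%), 1 had an unadjusted p below 0.05 (background 3.95%) and 0 were without overlap (background 2.24%). Overlap was counted after scaling between libraries, while the FPKM values given above are unscaled. For *C1qa* the female Het and WT libraries overlapped after scaling (lowest Het 2910, highest WT 2975) but not before it. The median log2 fold change of the 9 genes was -0.28, -0.18, 0.05 and 0.09 in male Homo, male Het, female Homo and female Het mice, and that of all genes tested 0.03, 0.01, 0.00099 and 0. For the 10 microglial markers, *Cx3cr1* among them, it was -0.20 in male Homo (8 of 10 lower) and -0.20 in male Het mice (9 of 10 lower). In female Homo and female Het mice it was 0.02 (4 of 10 lower) and -0.04 (7 of 10 lower), and 0 of these markers passed in any comparison with WT. This includes *Cx3cr1*, at 1829 to 2344 FPKM in male WT and 726 to 1112 in male Homo libraries. The fit uses 1 spread per gene for all 6 groups, with Het-F-0206 at 13.9 FPKM of *Cx3cr1*, and its part in this was not tested. Without Het-F-0206 and Het-M-0199, again 0 of 9 passed in either Het comparison, and no estimate changed direction. In male Het mice *C4b* was then at -0.88 (SE 0.28), *C5ar1* at -0.49 (SE 0.18) and *C3* at 0.81 (SE 0.34), and the other 6 genes lay between -0.31 and -0.11. In female Het mice the 8 genes other than *C3* lay between -0.043 and 0.15.

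No difference between Homo and Het mice passed for these genes. By limma 0 of 9 passed in males, where 0% of the genes tested did, and 0 of 9 in females, where 0.0118% did, and the unadjusted p was never below 0.05 (background 3.85% and 2.06%). The difference between the sexes in the change against WT passed for 0 of 9 genes in Homo mice, where 0% of the genes tested passed, and for 0 of 9 in Het mice, where again 0% passed. The unadjusted p was below 0.05 for 1 gene, *C4b*, in Homo mice (background 9.29%) and for 2, *C4b* and *C5ar1*, in Het mice (background 4.53%). The estimate was below 0 for all 9 genes in both, with medians of -0.44 and -0.30, and these estimates share the WT libraries of both sexes. With mouse number range as a term the sign turned in Homo mice for *C3ar1* (0.18), *Itgam* (0.16) and *Itgb2* (0.088), and in Het mice for *C1qa* (0.020) and *C1qb* (0.035). In late numbers alone it turned for the same genes of Homo mice, with *C3ar1* at 0.21, and for *C1qb* in Het mice (0.0088).

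Mouse number moved with *C1qa* and *Itgb2* in males. In male Homo mice *C1qa* was 1685, 2317 and 1974 FPKM in the early numbers and 3199 and 2675 in the late ones. In male Het mice it was 1703 and 2152 FPKM in the early numbers and 2285 to 3833 in the late ones. In both genotypes every early library lay below every late one. With genotype as a term over the 11 Cre-positive males, the early libraries were lower by a log2 difference of -0.76 for *C1qa* (SE 0.21, limma adjusted p = 0.0391) and of -0.57 for *Itgb2* (SE 0.16, adjusted p = 0.0379). These were 2 of 9 genes, where 14.6% of all genes tested passed. The other abundant genes were also lower, by -0.34 (*C3ar1*) to -0.55 (*C1qb*), and did not pass, while *C4b* (0.44, SE 0.26) and *C3* (0.28, SE 0.24) had estimates above 0.

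With number range as a term in the fit, the change in male Homo mice moved to 0.03 for *C1qa*, 0.02 for *Itgb2*, 0.01 for *Itgam* and 0.07 for *C3ar1*, and to -0.30 for *C5ar1*. For *C4b* it was -1.26 (SE 0.32, limma adjusted p = 0.107). With this term 0 of 9 genes passed in each of the 4 comparisons with WT. Of all 16897 genes tested, 40 then passed in male Homo mice, against 477 without the term. In male Het, female Homo and female Het mice 18, 18 and 31 passed with it.

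**Figure D3:**
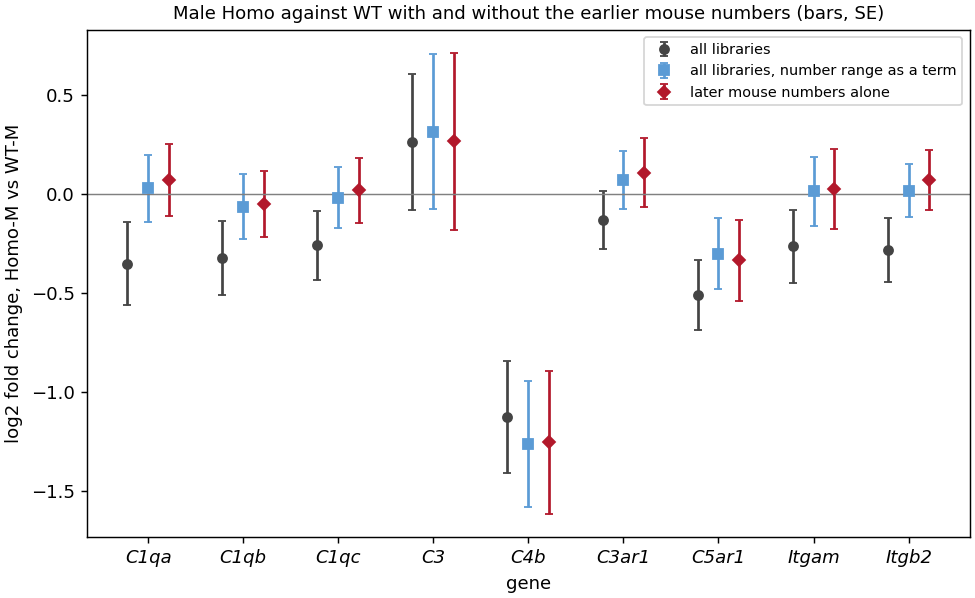
Log2 fold change of male Homo against male WT mice (vertical axis, bars are SE) for each gene (horizontal axis) in all libraries (circles), with mouse number range as a term (squares) and in late mouse numbers alone (diamonds). *C1qa* moves from -0.35 to 0.03 and 0.07, and *C4b* lies at -1.13, -1.26 and -1.26.

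Over the 30 libraries the genes fell into sets by how they deviated together from their group means, on the log2 scale. The C1q genes had a Pearson's r of 0.96 with each other. *C3ar1*, *C5ar1*, *Itgam* and *Itgb2* had r values of 0.79 to 0.91 with each other, and *Itgb2* had 0.70 to 0.81 with the C1q genes. *C4b* had r values of -0.34 to 0.34 with the other genes, and *C3* of -0.10 to 0.27. With the summed microglial markers the C1q, receptor and integrin genes had r values of 0.67 (*C5ar1*) to 0.85 (*Itgb2*), *C4b* -0.12 and *C3* -0.14. With the summed astrocyte markers the same genes had -0.83 (*Itgb2*) to -0.56 (*C1qb*), and *C4b* and *C3* 0.01 each. The libraries share number range, depth and composition, and values with few fragments carry more counting error, so these coefficients are descriptions without a test.

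Among all genes with a mean of at least 1 FPKM, the closest to *C1qa* were *Gabarap*, *Dad1* and *Fcer1g* (r = 0.97 each), and the closest to *C1qc* was *Bsg* (r = 0.98). *C1qb* was closest to *Bsg* and *Npc2* (r = 0.96 each), with *C1qc* in the third place. *Itgam* lay closest to *Tgfbr2*, *Pip4k2a* and *Tmem184b* (r = 0.98 each), *Itgb2* to *Lamp1*, *Hvcn1* and *Rtn3* (0.97 to 0.98), *C3ar1* to *Tmem184b*, *Etv5* and *Adam17* (0.92 to 0.93) and *C5ar1* to *Mcur1*, *Slc39a6* and *Tmem175* (0.90 to 0.93). *C4b* was closest to *Akt1* (0.79), *Dab2* and *Washc2* (0.78 each), and *Rsl1* (0.63) and *Zbtb43* (0.60) were among the genes closest to *C3*.

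**Figure D4:**
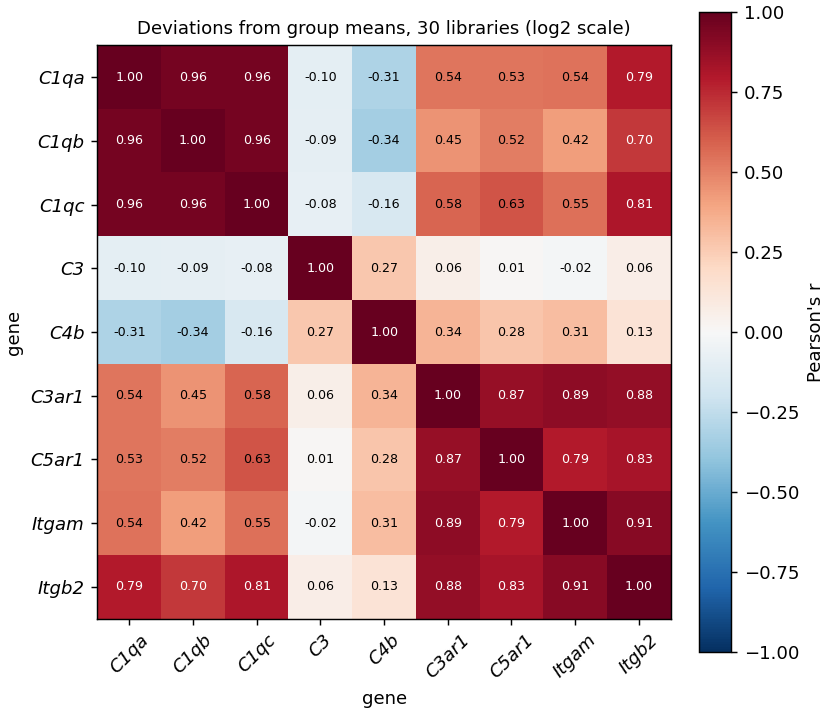
Pearson's r between the genes (both axes) of log2 deviations from group means over 30 libraries, with the color scale from -1 to 1. The C1q genes form 1 block (0.96) and the receptor and integrin genes another (0.79 to 0.91), and the *C3* row and column are near 0.

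The rest of the complement system was described from lists of 57 other genes, of which 33 passed the filter and 9 were at 0 in all libraries. In male Homo mice 1 rose and 2 fell of these 33, where 2.82% of all genes passed, and in the other comparisons with WT 0 passed in limma, where 0.071% to 0.172% of all genes did. The count with unadjusted p below 0.05 was 12 of 33 in male Homo, 9 in male Het, 0 in female Homo and 2 in female Het mice, where 22.5%, 14.2%, 3.49% and 3.95% of all genes were.

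*Cpn1*, the catalytic subunit of carboxypeptidase N, which inactivates C3a and C5a, rose in male Homo mice from 0.230 ± 0.0941 to 0.865 ± 0.153 FPKM (SD, n = 5 each), a log2 fold change of 1.53 (SE 0.32, limma adjusted p = 0.0126). In male Het mice it was 0.719 ± 0.224 FPKM (SD, n = 6), with a log2 fold change of 1.27 that did not pass (adjusted p = 0.0825). In female Homo and Het mice the log2 fold changes of *Cpn1* were 0.57 and 0.49 (SE 0.34 each) and did not pass. *Cfp*, properdin, which stabilises the convertase of the alternative pathway, fell in male Homo mice from 1.09 ± 0.299 to 0.423 ± 0.368 FPKM (log2 fold change -1.65, SE 0.45, adjusted p = 0.0441). *Fcnb*, ficolin B, a recognition molecule of the lectin pathway found in neutrophils, was 0 in all 5 male Homo libraries and in 1 of 5 male WT libraries. It averaged 0.423 ± 0.414 FPKM in male WT (SD, n = 5) and passed as lower (limma adjusted p = 0.0479). Its mean over all libraries was 0.126 FPKM, just above the filter of 0.1, so this call lies near the floor. The calls of *Cpn1*, as low as 0.0743 FPKM in male WT, and of *Cfp*, at 0 in 1 male Homo library, also rest on low values. Neutrophil markers moved in the same comparison, with a summed FPKM over 9 genes of 43.9 to 350 in male WT and 0 to 80.8 in male Homo mice and 4 of 7 tested markers that fell, and their part in the *Fcnb* and *Cfp* values was not tested. Alternative settings were examined for the main set of complement genes alone. The calls of *Cpn1*, *Cfp* and *Fcnb* were therefore not checked with mouse number range as a term.

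Among regulators, which protect host cells, *Cr1l* (Crry), which limits C3 activation on the cell surface, had group means of 107 to 128 FPKM and *Csmd3* of 30.2 to 65.4 FPKM. Neither passed in any comparison with WT. Of the proteases and substrates of the classical and lectin pathways, *C1rl* had the highest group means, 6.83 to 8.43 FPKM, before *C1ra*, the protease bound to C1q, with 1.31 to 2.27, and *Masp1*, its lectin pathway counterpart, with 0.881 to 1.15 FPKM. In the alternative pathway *Cfb*, factor B, had group means of 0.190 to 0.406 FPKM and *Cfd*, factor D, was listed at 0 in every library. In the terminal pathway *C8g* had group means of 2.15 to 4.19 FPKM, and *Hc*, which encodes C5, was listed at 0 in 5 of the 6 groups. Of other receptors, *Calr*, calreticulin, which binds C1q, had group means of 404 to 483, *Lrp1* of 62.7 to 98.8 and *C1qbp* of 34.0 to 38.1 FPKM. *C5ar2*, the second C5a receptor, had 19.9 to 21.9 FPKM.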

How the data were processed

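The 30 libraries were grouped by genotype and sex as their labels name them. Alignment by the authors was with OSA4 (mm10, Ensembl.R84 gene model) and quantification with RSEM, and they deposited FPKM per gene, neither logged nor pooled. The library kits named do not mark strand. Of the deposited columns, 6 match no listed sample and were not used. The study reports that 6 samples, from every group but male Het, were removed for low unique mapping and high duplication. These were also outliers in its principal component analysis. Whether they are the 6 unmatched columns was not checked. Read counts were not analysed here, so a count model was not fitted.

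Libraries were brought to a common scale by median-of-ratios factors from genes averaging at least 1 FPKM, a pseudocount of 0.1 was used, and limma 3.58.1 (R 4.3.3) was fitted to the log2 values of all 6 groups with an intensity trend, Benjamini-Hochberg adjusted over 16897 genes. Tests are two-sided, and the log2(FPKM + 0.1) scale understates changes of low genes. The code was tested on simulated data. Ratios, correlations and levels carry no test. Depth was estimated from the FPKM step of 1 fragment in 4110 genes with 1 transcript longer than 2000 bases, and is approximate because full transcript lengths were used. Shared 50-base stretches and positions came from GENCODE M21 (GRCm38), promoters from RefSeq (GRCm38.p6). Python 3.11.15 was used.

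The 9 genes and all lists were chosen with earlier results of these data known. The genes named are these 9, other complement genes that passed or had the 3 highest means of their list, the 3 genes most like each of the 9, markers that moved, *Bin1* and *Cx3cr1*. Some genes that meet this rule are not reported here. *C5ar2*, *Hc* and *C4a* were named after their values were seen. Nothing says more of the libraries than a mouse number, so p-values measure the spread between these mice.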

Additional observations from a re-analysis of the deposited data

Results flagged for a closer look

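In 2 of 54 combinations of gene and group, the highest library lay far from the others by Dixon's test at 95%, which chance gives in about 1 of 20 groups. *C1qc* was 4718 FPKM in WT-F-0200 and at most 4286 in the other 3 female WT libraries. *C3ar1* was 151 FPKM in Het-F-0220 and at most 117 in the other 4 female Het libraries.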

How the results depend on the processing

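The count of 9 genes that passed was 1 in male Homo mice and 0 in the other comparisons with WT, in the differences between the sexes and between Homo and Het. For male Homo mice it became 0 with no filter on low values (*C4b* adjusted p = 0.0519 by limma), 0 with mouse number range as a term, 0 with late mouse numbers alone, 0 when only the 2 groups compared were fitted (0.0868), and 2 with array weights, where *C5ar1* joined (log2 fold change -0.52, adjusted p = 0.042). Of all genes tested in male Homo mice, 477 of 16897 passed in the main fit. With mouse number range as a term 40 of 16897 did, and with late mouse numbers alone 9 of 16565. Leaving out each library in turn gave 0 to 1 of the 9 genes, with the libraries named in the report. The other counts stayed at 0 under every alternative run. Other pseudocounts, the filter at a mean FPKM of 1 (which drops *C3*), no scaling and quantile normalization left the call of *C4b*, whose log2 fold change lay between -1.26 and -0.80 over all settings. No paired analysis was possible because mouse numbers are unique to a library.

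Among the changes against WT recomputed for single genes, 658 kept their direction and side of the threshold, 9 lost the call, 1 gained it and 39 turned direction, none of them called before or after. In male Homo mice the sign turned with number range as a term for *C1qa* (0.027), *C3ar1* (0.069), *Itgam* (0.013) and *Itgb2* (0.016), and with late numbers alone for *C1qa* (0.069), *C1qc* (0.018), *C3ar1* (0.11), *Itgam* (0.025) and *Itgb2* (0.069). In male Het mice it turned with number range for *C1qa* (0.030) and *C3ar1* (0.0080), and with late numbers alone for *C1qa* (0.092), *C1qb* (0.039) and *Itgb2* (0.013). In female Homo mice it turned for *C5ar1* with array weights (0.0023) and for *Itgb2* with number range (-0.073) and late numbers (-0.017). In female Het mice it turned with quantile normalization for *C1qb* (-0.032) and *Itgam* (-0.0012), with number range for *C1qb* (-0.070), *C1qc* (-0.027), *C5ar1* (-0.0011), *Itgam* (-0.088) and *Itgb2* (-0.0048), and with late numbers for *Itgam* (-0.040). Leaving out 1 library turned only female estimates: in Homo mice *C4b* (-0.26 to 0.10), *C3ar1* (-0.11 to 0.038), *C5ar1* (-0.053 to 0.075), *Itgam* (-0.10 to 0.020) and *Itgb2* (-0.016 to 0.10), and in Het mice *C4b* (-0.20 to 0.16), *C5ar1* (-0.025 to 0.16) and *Itgam* (-0.041 to 0.080). The cause was not tested. Fewer than 100 fragments behind a value of *C3* limit its precision.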
